A study of Caenorhabditis elegans with 2 samples.

Results

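The genes described here are the nuclear hormone receptor genes of Caenorhabditis elegans, examined as possible places of binding of one of their own family, NHR-76. They were chosen by symbol from the protein-coding genes of the WBcel235 annotation, as every symbol of the form nhr and a number together with daf-12, fax-1, unc-55, odr-7 and sex-1, and leaving out nhr-76 itself and nhr-10, nhr-49, nhr-68 and nhr-80. This gave 269 of 19985 protein-coding genes. Each gene was described by the summits of the deposited regions that fell in its promoter window, which reached 1000 bp upstream and 200 bp downstream of the gene's 5′ end, and by the rank of each region within its list, rank 1 being the strongest.

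Chromatin immunoprecipitation followed by sequencing had been made from whole fourth-stage (L4) larvae of mixed sex, in 2 biological replicates that form 1 group. The strain was OP203, genotype unc-119(ed3) III with the integrated transgene wgIs203, from which NHR-76 carries an enhanced green fluorescent protein (eGFP) tag. Every sample therefore shares the transgene and the unc-119 allele, and no other genotype was analysed here. The sources used here give neither the promoter nor the copy number of the transgene, the labels give the target both as eGFP-nhr-76 and as nhr-76, and region lists hold nothing by which the stage or tissue could be checked. With whole animals, the lists do not say in which cells a region was bound. The 4 lists on the ce11 build held 26700 regions for replicate 1, 24791 for replicate 2 and 13052 for both alignments pooled. The last list held 319 peaks called with the irreproducible discovery rate (IDR), a method based on how ranks recur, and was named the optimal list. Not every called peak recurred in both replicates. Over all promoter windows, 174 of 179 called regions had a summit within 200 bp in both replicate lists. The replicate and pooled lists were named by the depositors as peaks and background, so a region in them need not be a peak.

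Nuclear hormone receptors are transcription factors with a zinc-finger DNA-binding domain and, in most members, a domain that binds small fat-soluble ligands such as sterols and fatty acids. Many bind DNA elements related to AGGTCA and regulate metabolism, molting, developmental timing and sex. The family is greatly expanded in nematodes, where most members derive from a receptor like HNF4 of other animals, and some receptors regulate the genes of others. NHR-76 is one of these expanded nematode receptors.

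Among the 269 genes, called summits in the promoter window lay at 7: nhr-79, nhr-48, nhr-58, nhr-1, nhr-256, nhr-105 and nhr-135. Their sequences are shown because these are the promoters of the 269 genes that the IDR-called list holds. Of the 5 receptors left out, nhr-68 also had a called summit in its window (rank 186). Each is read 5′ to 3′ on the strand of the gene from the ce11 genome, and holds up to 150 bases around the called summit. Those of nhr-58 and nhr-256 stop at the base before the annotated 5′ end of the gene. Capitals mark GAGAG, which reads CTCTC where it lies on the other strand, and the palindrome CACGTG. In the order printed, they came from chrV:19212536-19212685 on the minus strand, chrX:15707566-15707715 (plus), chrV:532117-532258 (plus), chrX:17513756-17513905 (plus), chrV:1743672-1743770 (plus), chrIV:7049675-7049824 (plus) and chrV:7093909-7094058 (minus).
nhr-79: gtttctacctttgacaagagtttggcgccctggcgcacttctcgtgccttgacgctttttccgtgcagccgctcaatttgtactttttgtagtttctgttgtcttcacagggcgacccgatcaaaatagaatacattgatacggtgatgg
nhr-48: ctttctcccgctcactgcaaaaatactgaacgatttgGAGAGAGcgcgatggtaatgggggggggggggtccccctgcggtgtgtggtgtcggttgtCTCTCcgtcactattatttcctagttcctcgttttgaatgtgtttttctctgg
nhr-58: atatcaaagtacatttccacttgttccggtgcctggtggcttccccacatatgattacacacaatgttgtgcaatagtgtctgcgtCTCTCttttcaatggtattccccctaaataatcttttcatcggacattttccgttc
nhr-1: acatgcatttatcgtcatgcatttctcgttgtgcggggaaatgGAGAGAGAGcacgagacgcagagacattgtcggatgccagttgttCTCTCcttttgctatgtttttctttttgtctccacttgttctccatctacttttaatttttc
nhr-256: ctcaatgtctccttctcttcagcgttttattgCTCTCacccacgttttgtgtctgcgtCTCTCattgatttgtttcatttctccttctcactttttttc
nhr-105: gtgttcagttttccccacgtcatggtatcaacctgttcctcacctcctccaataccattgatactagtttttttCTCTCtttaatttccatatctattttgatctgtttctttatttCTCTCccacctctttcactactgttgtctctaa
nhr-135: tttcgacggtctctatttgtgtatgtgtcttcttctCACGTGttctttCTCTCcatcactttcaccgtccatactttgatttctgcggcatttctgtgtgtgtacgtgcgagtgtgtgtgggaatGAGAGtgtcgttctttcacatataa
GAGAG was present in 6 of the 7 printed sequences, up to 4 times in that of nhr-1, and was absent from that of nhr-79. CACGTG was present in that of nhr-135 alone.

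All 7 called summits lay upstream of the annotated 5′ end, outside protein-coding genes and in the promoter window of no other protein-coding gene, so none of them was shared with a neighbour. Over all genes, 216 of 231 gene and called-summit pairs were upstream, and the 231 pairs came from 179 regions. The summit of nhr-79 (WBGene00003669, chromosome V) lay 716 bp upstream (offset -716) in the region from 19212426 to 19212795 and ranked 175 of 319 in the called list, with a signal value of 74.9. Its strongest region ranked 104 in replicate 1 and 499 in replicate 2. This was the strongest called peak among the 7, and none of the 159 strongest called peaks lay in the promoter of one of the 269 genes. The signal value is the authors' own score per region, on a scale that is not stated, and is used here only for ranks within a list.

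At nhr-48 (WBGene00003638, chromosome X, 15707456 to 15707825), a receptor of the group that also holds daf-12 and nhr-8 and the vertebrate vitamin D receptor, the summit lay at -572 bp with called rank 205 and signal value 69.5. Its region ranked 96 in replicate 1, the best rank of any receptor promoter in either replicate list, and 1463 in replicate 2. The summit of nhr-58 (WBGene00003648, chromosome V, 532007 to 532376) lay at -67 bp, with called rank 217 and ranks of 282 and 486 in replicates 1 and 2. These 3 promoters were all stronger in replicate 1.

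The order was the opposite at nhr-1 and nhr-105. At nhr-1 (WBGene00003600, chromosome X, 17513646 to 17514015) the called summit lay at -232 bp with rank 228, and its strongest region ranked 347 in replicate 1 and 178 in replicate 2. The summit of nhr-105 (WBGene00003695, chromosome IV, 7049565 to 7049934) lay at -406 bp with called rank 256, and ranks of 507 and 238. Replicate 2 listed 2 regions in the nhr-105 window, at -421 and -220 bp, on either side of the single replicate 1 summit at -285 bp.

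The remaining pair was again stronger in replicate 1. The summit of nhr-256 (WBGene00022805, chromosome V, 1743562 to 1743931) lay at -24 bp, with called rank 252 and ranks of 248 in replicate 1 and 1093 in replicate 2. That of nhr-135 (WBGene00003725, chromosome V, 7093799 to 7094168) lay at -214 bp, with called rank 299 and ranks of 434 and 1020. Thus 5 of the 7 ranked higher in replicate 1 (71.4%). Over all genes, 59.8% of the 174 called promoter regions found in both replicates did so too. The 4 receptor genes with one of the 1000 strongest regions of both replicates were nhr-79, nhr-58, nhr-1 and nhr-105.

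**Figure D1:**
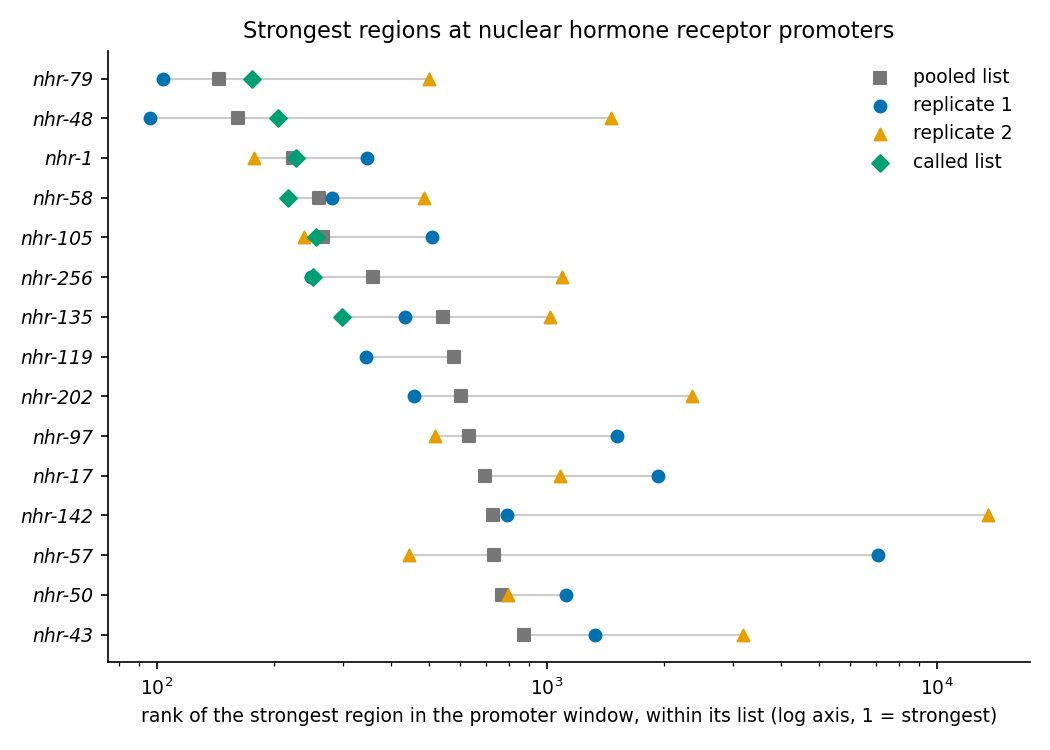
Rank of the strongest region in the promoter window (log axis, rank 1 strongest) for the 15 receptor genes with the highest pooled ranks, in the pooled list (squares), replicate 1 (circles), replicate 2 (triangles) and the called list (diamonds). The 7 genes with a called summit are the top 7 in the pooled list, from rank 144 for nhr-79 to 542 for nhr-135, and nhr-142 and nhr-57 have the widest gaps between the replicates.

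The 7 genes are 2.6% of the receptors, and 210 of all 19985 protein-coding genes (1.05%) had a called summit by the same rule. The receptors' ranks in the called list ran from 175 to 299 with a median of 228, against a median best rank of 166.5 over all called genes. By the 1000 strongest regions of both replicates, 4 receptors (1.49%) stood beside 291 genes (1.46%), a share near that of all genes. In replicate 1 alone 11 receptors had such a region (4.09%, beside 2.89% of all genes), in replicate 2 12 did (4.46%, beside 2.71%), and in either 19 did (7.06%, beside 4.15%). At this depth the receptors' share thus stood above that of all genes in each replicate by itself, and near it where both were required. No test was made of these shares, since the 2 samples form 1 group and the genes are not replicates. Replaced by the 319 strongest regions of replicate 2, the called count was 2 (nhr-105 and nhr-1), or 0.743% beside 1.04% of all genes. With those of replicate 1 it was 4 (nhr-48, nhr-58, nhr-79 and nhr-256), or 1.49% beside 1.04%. Among the 319 strongest of replicate 2 the receptors' share was thus below that of all genes.

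Sequence that the reference masks as repeats held the called summit of 4 of the 7 genes, nhr-79, nhr-58, nhr-256 and nhr-105, or 57.1%, while 16.5% of all gene and called-summit pairs lay in masked sequence. In the other lists the order was reversed, with 32.9% of the receptors' pooled pairs masked (38.8% over all genes), 36.8% in replicate 1 (41.1%) and 33.6% in replicate 2 (39.9%). Without masked summits 3 receptors (1.12%) and 174 genes (0.871%) had a called summit. At nhr-105 and nhr-256 the pooled and the strongest replicate summits, which lie within 200 bp of the called one, were outside masked sequence. The part of repeats in the called summits was not tested.

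Next in the pooled list came 8 receptor promoters without a called summit. That of nhr-119 (chromosome II) ranked 579 in the pooled list, with its summit at -359 bp, and 344 in replicate 1, and replicate 2 listed no region in the window. That of nhr-202 (chromosome V) ranked 604, with 457 in replicate 1 and 2360 in replicate 2. Both were stronger in replicate 1, as were nhr-142 and nhr-43.

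The pooled summit of nhr-142 (chromosome V) ranked 727 and its strongest region 791 in replicate 1 but 13542 in replicate 2. It lay at -468 bp from nhr-142 and at -209 bp from F44E7.9, the nearer of the 2 genes, so the summit cannot be given to one gene. At nhr-43 (chromosome IV) the summit lay 56 bp into the gene, in an exon, with a pooled rank of 874 and ranks of 1331 and 3197.

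The others were stronger in replicate 2. At nhr-57 (chromosome V), a gene known to be induced by hypoxia through HIF-1, the pooled rank was 733 with ranks of 7096 and 443. At nhr-97 (chromosome IV) it was 633, with ranks of 1515 and 516. At nhr-17 (chromosome X) it was 693, with ranks of 1936 and 1082, and at nhr-50 (chromosome V), whose summit lay 18 bp upstream (offset -18), it was 769 with ranks of 1119 and 796. The next promoter in the pooled order, nhr-47, ranked 888.

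Counting all regions, 66 receptors (24.5%) had a pooled summit, beside 21.3% of all genes. Replicate 1 had 97 such receptors (36.1%, beside 34.8%) and replicate 2 had 99 (36.8%, beside 32.4%), and 49 had a summit in both replicate lists (18.2%, beside 17.9%). Of the 66, 62 held 1 pooled region and 4 held 2. Beyond the 15 strongest, the other 51 receptors had pooled ranks from 888 to 12730, and the median over the 66 was 5464, against 4732 over all genes with a pooled summit. In the replicate lists the medians of the best rank were 7540 in replicate 1 (9998 over all genes) and 9974 in replicate 2 (10010).

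Each receptor could be placed by the lists in which it had a summit. All 4 lists held the 7 called genes (2.6%, beside 1.04% of all genes), and 35 receptors were in the pooled and both replicate lists but not called (13%, beside 12.9%). The pooled list and replicate 1 held 16 (5.95%, beside 4.64%), and the pooled list and replicate 2 held 6 (2.23%, beside 2.43%). The pooled list alone held 2 (0.743%, beside 0.27%), and both replicates without the pooled list 7 (2.6%, beside 3.99%). The 2 were nhr-229 and nhr-156, with replicate 1 summits 32 and 85 bp from the pooled ones (ranks 2202 and 4882) but outside the windows. Summits of both replicates in a window need not lie at the same place, as at nhr-59 (20 and -868 bp). Replicate 2 alone held 44 (16.4%, beside 12%) and replicate 1 alone 32 (11.9%, beside 12.2%). The other 120 (44.6%) had no summit in any list, as did 50.5% of all genes.

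The share of receptors stood above that of all genes at most list depths. Among the 1000 strongest regions it was 5.95% in the pooled list (3.06% of all genes), 4.09% in replicate 1 (2.89%) and 4.46% in replicate 2 (2.71%). At the 319 strongest it was 1.86% in the pooled list (1.12%) and 1.49% in replicate 1 (1.04%), but below the background in replicate 2 (0.743%, beside 1.04%). At 5000 pooled regions the shares were 11.5% and 11%.

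**Figure D2:**
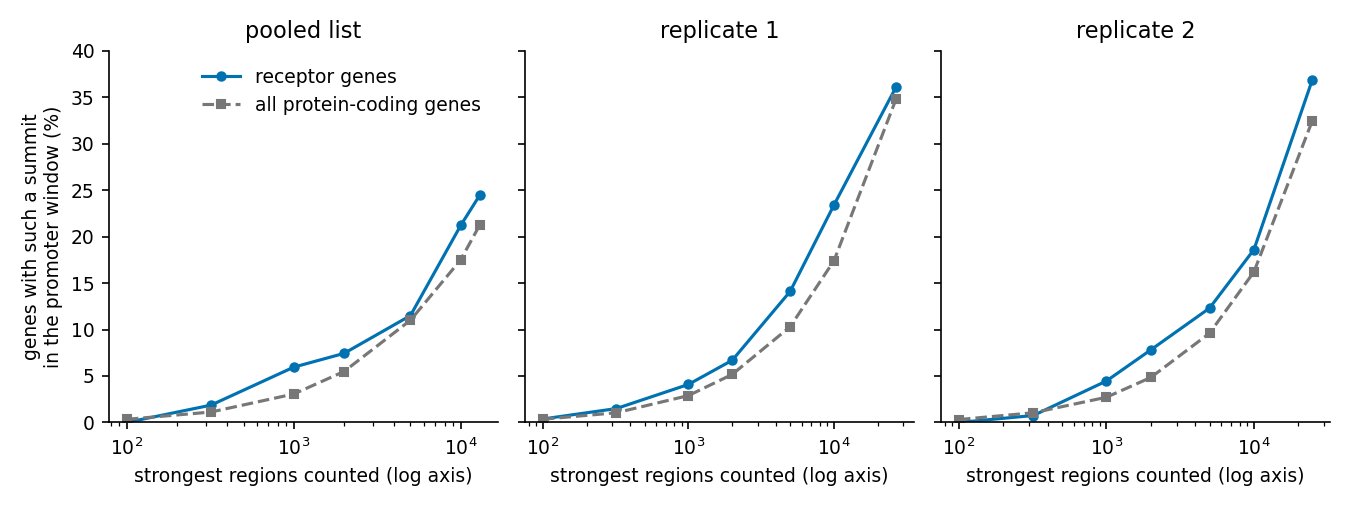
Share of the 269 receptor genes (circles) and of all 19985 protein-coding genes (squares) with a summit in the promoter window among the strongest 100 to all regions of the pooled list and each replicate list (log axis). The lines lie close at the strongest 319 regions and below, and at the whole lists they reach 24.5% and 21.3% (pooled), 36.1% and 34.8% (replicate 1), and 36.8% and 32.4% (replicate 2).

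The receptors with clear counterparts in other animal phyla are described first. Of 15, 1 had a called summit (nhr-48, or 6.67% beside 1.05% of all genes) and 3 had a pooled summit (20%, beside 21.3% of all genes). No summit in any list was found for 10 of the 15, and for 50.5% of all genes. The pooled ones besides nhr-48 were nhr-8, which acts in xenobiotic resistance and cholesterol balance, and nhr-85, a counterpart of E75 and Rev-erb that acts in developmental timing. At nhr-8 the pooled rank was 6337, with 14646 in replicate 1 and 5377 in replicate 2, and at nhr-85 it was 5501, with 8821 and 7518. Both lie well below the weakest pooled rank of a called receptor, 542 at nhr-135.

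Single replicates added only daf-12, the dafachronic acid receptor that governs dauer entry, with rank 9151 in replicate 2, and nhr-6, a counterpart of the NR4A receptors, with rank 22487 in replicate 1. No summit was found for the other 10. These were nhr-23 and nhr-25 (molting), nhr-67 (the tailless counterpart), nhr-41, nhr-91, nhr-111, nhr-239, fax-1 and unc-55 (neuron identity) and sex-1. The last acts in the counting of X chromosomes for sex determination. No summit in a list does not show that a promoter is unbound, since the depth of the samples is unknown.

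Of 10 receptors with roles in metabolism or in the response to foreign compounds, none had a called summit (1.05% of all genes) and 3 had a pooled one (30%, beside 21.3%). No summit in any list was found for 5 of the 10, and for 50.5% of all genes. The 5 receptors left out of the set are not among the 10. Of those left out, nhr-68 was called (rank 186), nhr-76, nhr-49 and nhr-80 had pooled ranks of 1644, 2389 and 8196, and nhr-10 had no pooled summit. The strongest of the 10 was nhr-69, with a pooled rank of 1321 and ranks of 1719 in replicate 1 and 16453 in replicate 2, followed by nhr-8 and by nhr-64, ranked 9712. The window of nhr-114, which protects the germ line on some bacterial diets, had ranks of 3227 and 10661 in the replicates, at -86 and -924 bp and so at different places, and no pooled region. Of nhr-14, a receptor close to HNF4, only replicate 1 listed regions, the stronger at rank 5662. Among 5 timing and molting receptors (nhr-23, nhr-25, nhr-67, nhr-85 and daf-12) only nhr-85 had a pooled summit (20%, beside 21.3% of all genes), and among 4 receptors of neuron identity (fax-1, unc-55, odr-7 and nhr-67) none did, with odr-7, which specifies the AWA olfactory neuron, listed by replicate 2 alone at rank 20472.

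The other 244 receptors, most of them nematode-specific, held 6 of the 7 called genes (2.46%, beside 1.05% of all genes) and 61 of the 66 pooled ones (25%, beside 21.3%). Of the 244, 105 had no summit in any list, beside 50.5% of all genes. For comparison with another large family of transcription factors, 63 homeobox genes named ceh held no called summit (1.05% of all genes), and 11 had a pooled one (17.5%, beside 21.3%), the strongest at rank 1647. No test of the families against each other was made.

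Among genes that work with nuclear receptors without belonging to the family, cbp-1, which encodes the acetyltransferase and coactivator of the p300 and CBP type, had the strongest region. Its called rank was 78, above the promoters of all 7 called receptors, with ranks of 162 in replicate 1 and 67 in replicate 2 and a summit at -914 bp. A pooled summit was present at din-1, a corepressor partner of DAF-12, at rank 1498, and at strm-1, a sterol methyltransferase, at rank 12337. The Mediator subunit gene mdt-15 was listed by replicate 2 alone at rank 20345. The dafachronic acid synthesis genes daf-9, daf-36, dhs-16 and hsd-1 had no summit in any list. Of 9 partner genes listed, daf-21 was not matched in the annotation and was not counted. Among the other 8, 1 was called (12.5%, beside 1.05% of all genes) and 3 were pooled (37.5%, beside 21.3%). Whether the cbp-1 summit also lay in another gene's window was not examined, and the list was chosen with earlier results of these data known.

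Within the promoter windows, the receptors' pooled summits were spread much like those of all genes, as the medians and shares show. Of 70, 62 were upstream of the 5′ end (4153 of 4662 pairs over all genes). The median offset was -290.5 bp (-302 bp over all genes), and 40% lay within 300 bp upstream (39%). The called ones had a median of -232 bp (-264 bp over all genes), and 4 of 7 lay within 300 bp upstream. By annotation, 56 pooled summits were outside protein-coding genes, 8 in exons and 6 in introns. Of the 70 summits, 64 lay in no other gene's window, and the receptor had the nearest 5′ end for 68. Over all genes the 4662 pairs came from 3958 regions, so some regions lay in more than 1 window. Of the summits inside genes, 8 lay in the receptor itself and 4 in another receptor.

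**Figure D3:**
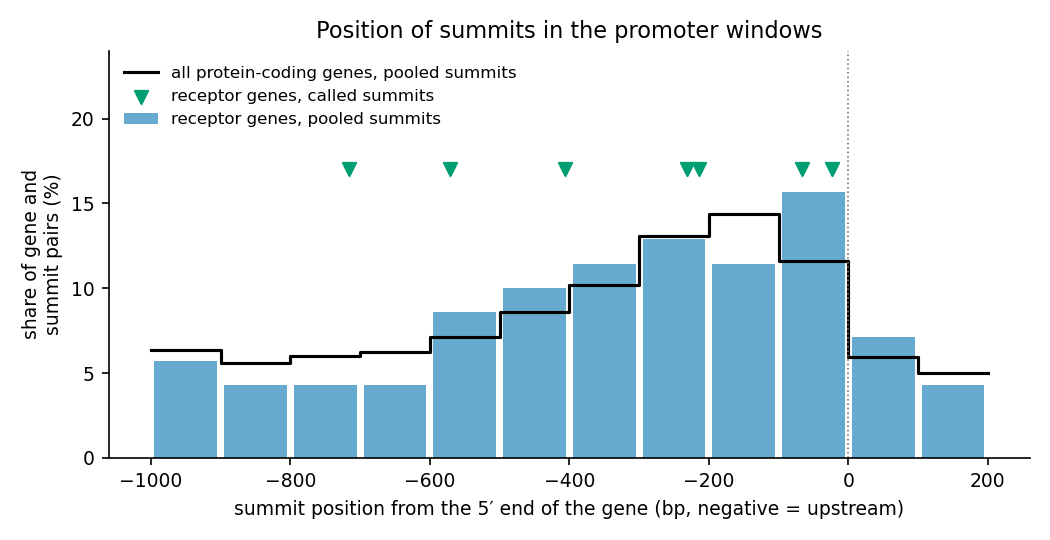
Position of the summit from the 5′ end of the gene (bp, negative upstream) in 100 bp bins, as the share of 70 receptor pairs (bars) and of 4662 pairs over all protein-coding genes (line) in the pooled list, with the 7 called receptor summits as triangles. Both distributions rise towards the 5′ end, with medians of -290.5 and -302 bp, and the called summits run from -716 to -24 bp.

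Some called summits lay near receptor genes but outside the window. Introns of 3 receptors held one, those of nhr-3 (1957 bp downstream of the 5′ end, called rank 77), nhr-19 (1940 bp, rank 110) and nhr-14 (847 bp, rank 231), and the first of these was stronger than every called summit in a receptor promoter. The share of all genes with a called summit in an intron is not given here. Upstream of the window lay the summits nearest to nhr-258, at -1090 bp with rank 319, to nhr-21, at -1626 bp with rank 214, and to nhr-88, at -2547 bp with rank 125. Within 2000 bp on either side, 12 receptors (4.46%) had a called summit, beside 1.59% of all nuclear genes, and within 5000 bp 16 did (5.95%, beside 3.09%). These are counts of genes and not of separate peaks. The summits nearest to nhr-132 and nhr-286 were those already counted at nhr-58 (rank 217) and nhr-135 (rank 299). That nearest to nhr-101 was the one in the window of nhr-68 (rank 186), which was left out of the set. The median distance to the nearest called summit was 210440 bp for receptors and 134586 bp for all nuclear genes, so the median receptor lay farther from one.

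The receptors are unevenly placed in the genome. Chromosome V held 166 of them (61.7%, beside 25% of all genes), and 124 of the 269 had the 5′ end of another receptor within 5000 bp, 6 within 1000 bp. No pooled summit fell in the windows of 2 receptors at once. On chromosome V, 42 of 166 receptors (25.3%) had a pooled summit, beside 17.1% of its other genes, and 4 (2.41%) had a called one, beside 0.642%. With that chromosome divided into 3 parts of equal length, 30.8% of 78 receptors had a pooled summit in the left part (18.4% of other genes), 27.5% of 40 in the centre (20.6%) and 14.6% of 48 in the right part (11.9%).

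The order was not the same everywhere. On chromosome IV 10 of 32 receptors (31.2%) had a pooled summit, beside 21.6% of other genes, and on X 8 of 27 (29.6%, beside 20%). Chromosome I had 3 of 23 (13%, beside 25.1%), chromosome II 3 of 15 (20%, beside 19.5%) and chromosome III none of 6 (27.3% of other genes). Called receptors lay on V (4), X (2, or 7.41% beside 0.592% of other genes) and IV (1, or 3.12% beside 0.8%). On I, II and III none of the 23, 15 and 6 receptors was called, beside 1.33%, 1.02% and 1.71% of other genes. With so few receptors there, no pattern can be read from that absence.

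**Figure D4:**
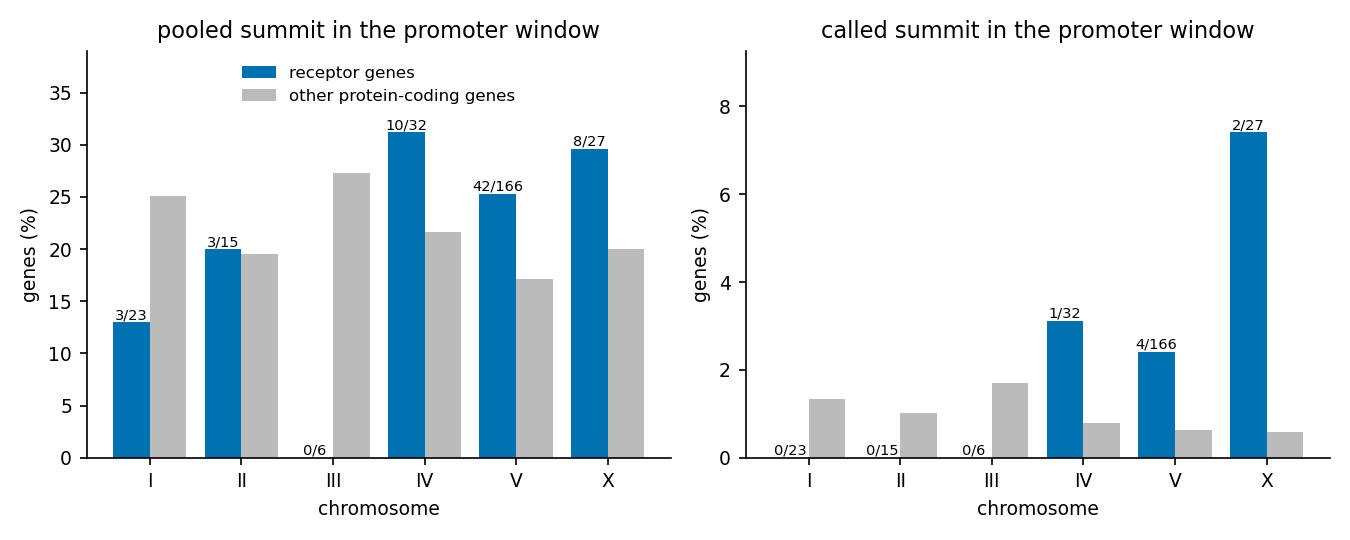
Share of receptor genes (blue, with counts) and of other protein-coding genes (grey) with a pooled (left) and a called (right) summit in the promoter window, by chromosome. Receptors stand above other genes on IV, V and X in both panels and below them on I and III, which hold 23 and 6 receptors.

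Between the replicates, the receptors' pooled regions were found in both at a share near that of all promoters. A summit within 200 bp was present in both replicate lists for 39 of 70 (55.7%, beside 54.2% of all pooled promoter regions). It was present in replicate 1 alone for 20 of the 70, beside 1118 of 3958 over all genes. Replicate 2 alone held it for 11 of the 70, beside 635 of 3958. Across those 39 regions, Spearman's rho of the 2 ranks was 0.50, and across 2144 such regions of all genes it was 0.43. Over the 7 called receptor regions it was -0.64, and over 174 called promoter regions of all genes it was 0.66. The 7 are few and confined to called ranks 175 to 299, so these values cannot be set against each other. All of these correlations are a description only, since a further file common to both replicates entered each list and the pooled list chose the regions. In 20 of the 39 the rank was higher in replicate 1 (51.3%, beside 51.6% over all genes), and in 10 the ranks differed by more than 5 times. The share of all genes' regions that differed as much is not given here.

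**Figure D5:**
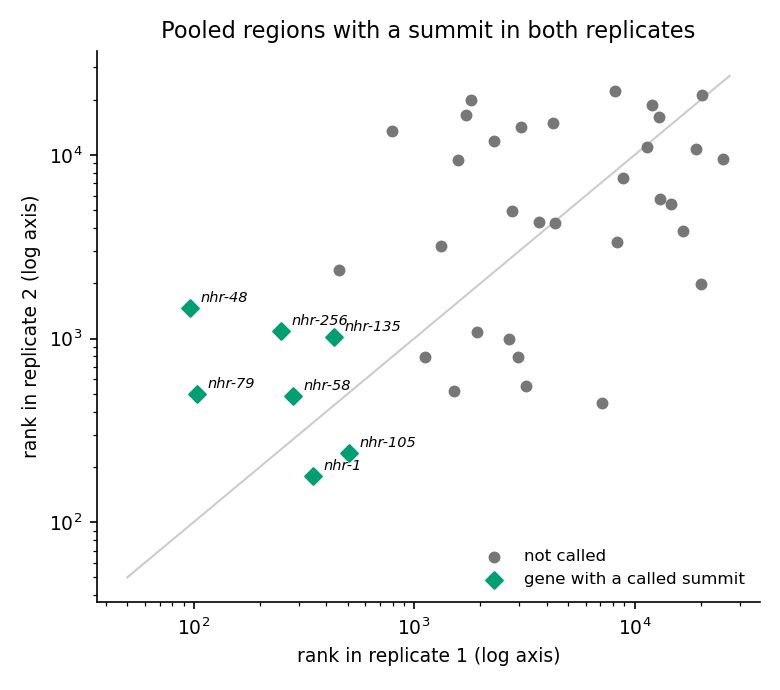
Rank in replicate 1 against rank in replicate 2 (log axes) for the 39 receptor pooled regions with a summit within 200 bp in both, with the line of equal ranks and the 7 genes with a called summit as named diamonds. The called genes lie at the strong end of both axes, 5 of them above the line and so stronger in replicate 1.

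Elements that nuclear receptors are known to bind were searched at the summits. The search covered both strands of the 200 bp at each summit. At the 7 called receptor summits 0 held AGGTCA, beside 6.27% of all 319 called peaks, and 0 held the longer element AAGGTCA, which contains the first, beside 3.45%. Likewise 0 held AAGTCA, beside 10.3%, and 0 held AGTGCA, beside 6.58%. At the 70 pooled receptor summits AGGTCA was found in 2 (2.86%, beside 4.78% of 3958 pooled promoter regions), AAGGTCA in 0 (1.41%), AAGTCA in 9 (12.9%, beside 8.26%) and AGTGCA in 7 (10%, beside 7.66%). In the whole windows of 1201 bp AGGTCA was found in 26.8% of receptors and 26.7% of genes, and AAGTCA in 54.6% and 44.9%. In the windows of the 66 receptors with a pooled summit, AGGTCA was found in 19.7% and AAGTCA in 45.5%, both lower than over all receptors.

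The GAGAG and CACGTG marked in the printed sequences were searched after those sequences had been read. Both were already known to be frequent among the called peaks as a whole, so their presence here is no separate evidence. GAGAG was present in the 200 bp at 6 of the 7 called receptor summits (85.7%), all but that of nhr-79, and at 53.9% of all called peaks. It was present at 45.7% of the pooled receptor summits, beside 31.8% of pooled promoter regions, while whole windows held it in 79.9% of receptors and 80.1% of genes. CACGTG was present at 1 of the 7 (14.3%, beside 14.4% of all called peaks), that of nhr-135. The G and C content of the 7 windows ran from 35% at nhr-105 to 53% at nhr-48, with a mean of 41.7% beside 40.2% over all called peaks. A match is a run of letters and not a bound site.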

How the data were processed

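Immunoprecipitated DNA of eGFP-tagged NHR-76 from L4 larvae was sequenced in 2 biological replicates. Per the deposited texts, the regions of each replicate were derived from its alignment and 1 further file, the pooled regions from both alignments and the same file, and the called peaks from these lists by IDR. The aligner, the peak caller and its thresholds were not given in the sources used here. The authors deposited a signal value per region, a score of unstated scale, used here to rank regions within a list, and a summit offset. No counts were used, so the depth is unknown and no interval that needs it was made. Lists on the ce10 build were not used.

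Gene starts came from Ensembl release 115 on WBcel235 (the ce11 build), and masked repeats and sequence from the RefSeq genome of that assembly. Summits in promoter windows were counted with Python 3.11.15 and checked on simulated data. Only counts, shares and ranks beside those of all genes were made, with no test. The members and gene lists were chosen with earlier results of these data known, and GAGAG and CACGTG were added after seeing the sequences. Genes were named if called, among the 1000 strongest regions of both replicates, among the 15 strongest pooled, or conserved. Other genes named, among them receptors near called summits, receptors of the role lists and partner genes, were taken from fixed lists or for their values.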

Additional observations from a re-analysis of the deposited data

How the results depend on the processing

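Shares of all genes under the same setting are given in parentheses after each count of receptors and its share. For the called summits, a window reaching 500 bp upstream gave 5 or 1.86% (0.836%), and one reaching 2000 bp gave 9 or 3.35% (1.4%). Every transcript's 5′ end gave 7 or 2.6% (1.09%), any overlap 8 or 2.97% (1.13%), and the nearest gene alone 7 or 2.6% (0.806%). These counts of 5 to 9 were within 1.5 times the reported 7. The wider window added nhr-21 and nhr-258. Leaving out masked summits gave 3 or 1.12% (0.871%), and the 159 strongest called peaks gave 0 (0.5%). A single replicate in place of both gave 2 to 4, or 0.743% (1.04%) without replicate 1 and 1.49% (1.04%) without replicate 2. The pooled count of 66 was 41 or 15.2% (13.1%) among the 6526 strongest pooled regions. The count of 49 in both replicate lists was 30 or 11.2% (10.9%) with a window of 500 bp and 92 or 34.2% (29.2%) with 2000 bp. It was 29 or 10.8% (8.1%) without masked summits, 29 or 10.8% (9.48%) among the 13350 and 12395 strongest of each, and 97 to 99 with either replicate alone, or 36.1% (34.8%) and 36.8% (32.4%). The 4 receptors among the 1000 strongest regions of both replicates became 8 or 2.97% (2.03%) with 2000 bp, 2 or 0.743% (0.996%) without masked summits, and 10 or 3.72% (2.41%) at the 2000 strongest. With either replicate alone they were 11 to 12, or 4.09% (2.89%) and 4.46% (2.71%). The cause of these differences was not tested. No paired analysis was possible because the 2 replicates form 1 group. Depth limits are unknown, since the lists carry no counts.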
